A study of Mus musculus with 39 samples.

Results

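Single blastomeres of separated 4-cell mouse embryos were sequenced in 2 batches, and the 2 embryos of batch 2 are compared here with the 3 embryos of batch 1. The members are 20 of the 39 libraries of the series: 8 blastomeres from batch 2 (embryos 6 and 7) and 12 from batch 1 (embryos 2, 3 and 4), with 4 sister blastomeres per embryo. They were chosen by the batch that the labels give each sample, and no measured value entered the choice. All embryos carry the wild-type genotype, and each library was made from 1 blastomere by the Smart-seq2 method, in which oligo-dT primes reverse transcription of lysed material, a template-switching oligo completes full-length cDNA, and the product is amplified by PCR and tagmented. The labels say nothing more of what the batches are, and give no strain, litter or time in culture. The 4 intact 4-cell embryos, which are 1 library each and belong to batch 1, are given as a further reference. The embryo is the replicate, so the counts of its 4 sisters were summed. The labels do not say that embryos came from separate animals, so each p-value is set against the spread of the sampled embryos alone, and that spread may be technical. Batch 2 holds separated 4-cell embryos only, and the comparison is one of batches: embryo source, handling, library preparation and sequencing cannot be told apart.

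A mouse oocyte stores maternal RNA and protein that carry the embryo through fertilisation. Transcription from the embryonic genome starts in full at the 2-cell stage, while much of the stored RNA is degraded. Mitochondria are inherited from the oocyte, and their small genome encodes subunits of the respiratory chain together with its own ribosomal and transfer RNAs. Oligo-dT priming captures RNA with a run of adenines, so that ribosomal RNA, transfer RNA and small RNA enter such libraries only in part.

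The depth differed between the batches. In units of M (mega, as in megabase), batch 1 libraries held 2.4 to 5.23 M gene counts, and 7 of the 8 batch 2 libraries held 22.4 to 31.6 M. Blastomere 2 of embryo 7 held 2.02 M, below every batch 1 library. This shallow library held 1.73% of its counts in mitochondrial mRNA, 9.13% in rRNA-like genes and 7.42% in coding genes of short transcripts, the classes described below, and in each of the 3 it lay apart from every batch 1 library. Summed embryos held 13 to 15.8 M counts in batch 1 and 86.8 to 103.2 M in batch 2, and intact 4-cell embryos 2.74 to 4.19 M.

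Batch 2 blastomeres showed more genes at an equal total count, while the make-up of that total differed as described below. After every library was thinned to 2.02 M counts, a batch 1 blastomere had a count for 7686, 8297 and 8329 genes on average in embryos 2, 3 and 4, and a batch 2 blastomere for 12283 and 11609 genes in embryos 6 and 7. The embryo means were 8104 ± 362 (SD, n = 3) and 11946 ± 477 (SD, n = 2). Single libraries ranged from 7403 to 9306 genes in batch 1 and from 11182 to 13144 in batch 2, without overlap, and the lowest batch 2 value was that of blastomere 2 of embryo 7. An exact two-sided permutation test of 2 against 3 embryos gave p = 0.2, which is the smallest p this design allows, here and for every class below.

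Of 17343 genes tested with edgeR's quasi-likelihood test, 220 differed between the batches at an adjusted p under 0.05, or 1.27%. Of these, 81 were higher in batch 2 (0.467%) and 139 lower (0.801%). The embryo values of the batches did not overlap for any of the 220, and for 213 of them the batch 2 embryos also lay outside the range of all 7 batch 1 embryos at the 4-cell stage, intact ones included. Such a position outside all 7 was found for 28.3% of all genes tested. Over all genes tested, batch 2 was higher without overlap for 34.5% and lower without overlap for 10.9%, and 2297 genes had an unadjusted p under 0.05. The median log2 fold change of all genes was 0.61, which is the level against which the medians of gene groups are to be read. It was 0.41 with DESeq2's size factors, 0.26 with thinned libraries, 0.02 without embryo 6, 0.18 without embryo 7, and -0.38 among the 323 genes with a mean of at least 500 CPM, the count of a gene scaled to 1 M counts per embryo. With DESeq2's size factors the number of calls was 243, of which 23.9% were higher, beside 36.8% with the scaling used here (trimmed mean of M values, TMM). No called gene changed direction with those factors.

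Mitochondrial transcripts took a smaller share of the counts in batch 2. The 13 mitochondrial mRNAs together took 8.89%, 8.27% and 7.37% of the counts in batch 1 embryos 2, 3 and 4, and 2.45% and 2.23% in batch 2 embryos 6 and 7. The mean was 8.17% ± 0.764 (SD, n = 3) against 2.34% ± 0.151 (SD, n = 2), or 3.49 times lower in batch 2, and intact embryos held 7.87% to 15.3%. Every batch 2 library, at 1.73% to 2.7%, was below every batch 1 library, at 5.89% to 10.8%. Shares are relative to the total of a library, so a smaller share can reflect fewer of these transcripts per cell or more of others.

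Cytochrome b (mt-Cytb), a core subunit of respiratory complex III, held the most counts of the 13 in all 5 embryos. It is encoded on the plus strand of the mitochondrial genome, at bases 14145 to 15288 of the GRCm38 assembly, and its first 150 bases are shown for their composition, with G and C in capitals here and below.
mt-Cytb: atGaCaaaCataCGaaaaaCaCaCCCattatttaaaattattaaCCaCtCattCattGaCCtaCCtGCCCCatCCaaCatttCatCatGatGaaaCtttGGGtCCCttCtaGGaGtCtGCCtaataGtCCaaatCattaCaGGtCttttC
G and C make up 39.1% of its 1144 bases. Its level was 47383, 47698 and 40800 CPM in batch 1 embryos 2, 3 and 4, and 8272 and 9853 CPM in batch 2 embryos 6 and 7. Both batch 2 embryos lay below all batch 1 embryos and below the intact range of 34647 to 84897 CPM. The log2 fold change was -2.32 ± 0.33 (SE), with an edgeR adjusted p of 0.000677.

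Of the 13 mitochondrial mRNAs, 12 passed the filter on low counts, 5 were called lower and none higher, and the median log2 fold change was -1.80. The complex I subunits mt-Nd1, mt-Nd2, mt-Nd4 and mt-Nd6 fell by 1.59, 1.55, 1.54 and 1.80 on the log2 scale. For mt-Nd2 the batch 1 embryos held 10636, 9142 and 8719 CPM and the batch 2 embryos 3630 and 2838 CPM (edgeR adjusted p = 0.00241). The difference was smaller for 2 abundant members. The complex IV subunit mt-Co1 had 7300, 3475 and 3466 CPM in batch 1 and 3485 and 2633 CPM in batch 2, so that the embryos overlapped (log2 fold change -0.63 ± 0.38, edgeR adjusted p = 0.464). The complex I subunit mt-Nd5 was -0.66 ± 0.29 on the same scale (edgeR adjusted p = 0.352). The other 5 tested members, mt-Atp6, mt-Atp8, mt-Co2, mt-Co3 and mt-Nd3, had means under 1 CPM over the 5 embryos. They thus carry next to no weight in the share of the class. Each counts in full in the median of -1.80, however, and their log2 fold changes ran from -1.80 to -3.94. How their reads were assigned is not given in the sources used here, so these levels are uncertain and are not a measure of low expression.

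Mitochondrial ribosomal RNA moved in the same direction. The large ribosomal RNA mt-Rnr2 had 111157, 94887 and 84796 CPM in batch 1 and 32857 and 26502 CPM in batch 2. Batch 2 was below all batch 1 embryos and below the intact range of 67852 to 117672 CPM, with a log2 fold change of -1.71 ± 0.26 (edgeR adjusted p = 0.00104). The small ribosomal RNA mt-Rnr1 had a log2 fold change of -1.26 ± 0.29 (edgeR adjusted p = 0.029). Together they took 12.3% ± 1.02 (SD, n = 3) of the counts in batch 1 and 4.00% ± 0.703 (SD, n = 2) in batch 2.

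Mitochondrial transfer RNAs showed the widest gap of the mitochondrial classes. Their summed share was 0.150%, 0.0538% and 0.0675% in batch 1 and 0.00175% and 0.00158% in batch 2, a ratio of 54.3 between the means. Of 13 tested, 5 were called lower, and all 13 were lower in both batch 2 embryos than in any batch 1 embryo. The transfer RNA for glutamine, mt-Tq, lies at bases 3772 to 3842 on the minus strand of the mitochondrial genome, and its whole 71 bases are shown because it is a very short transcript with a large difference.
mt-Tq: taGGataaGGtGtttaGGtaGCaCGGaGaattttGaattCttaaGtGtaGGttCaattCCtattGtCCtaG
It had 1239, 322 and 395 CPM in batch 1 and 5.83 and 6.74 CPM in batch 2. Both batch 2 embryos were below every other 4-cell embryo, intact ones at 510 to 883 CPM, with a log2 fold change of -6.70 ± 0.62 (edgeR adjusted p = 4.88e-06). The transfer RNA for proline, mt-Tp, had 149, 69.5 and 75.8 CPM in batch 1 and 1.21 and 1.19 CPM in batch 2 (log2 fold change -6.35 ± 0.65, edgeR adjusted p = 1.28e-05). Transfer RNAs lie next to, or between, longer mitochondrial transcripts, and the files do not tell reads of a mature transfer RNA from those of a longer precursor.

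**Figure D1:**
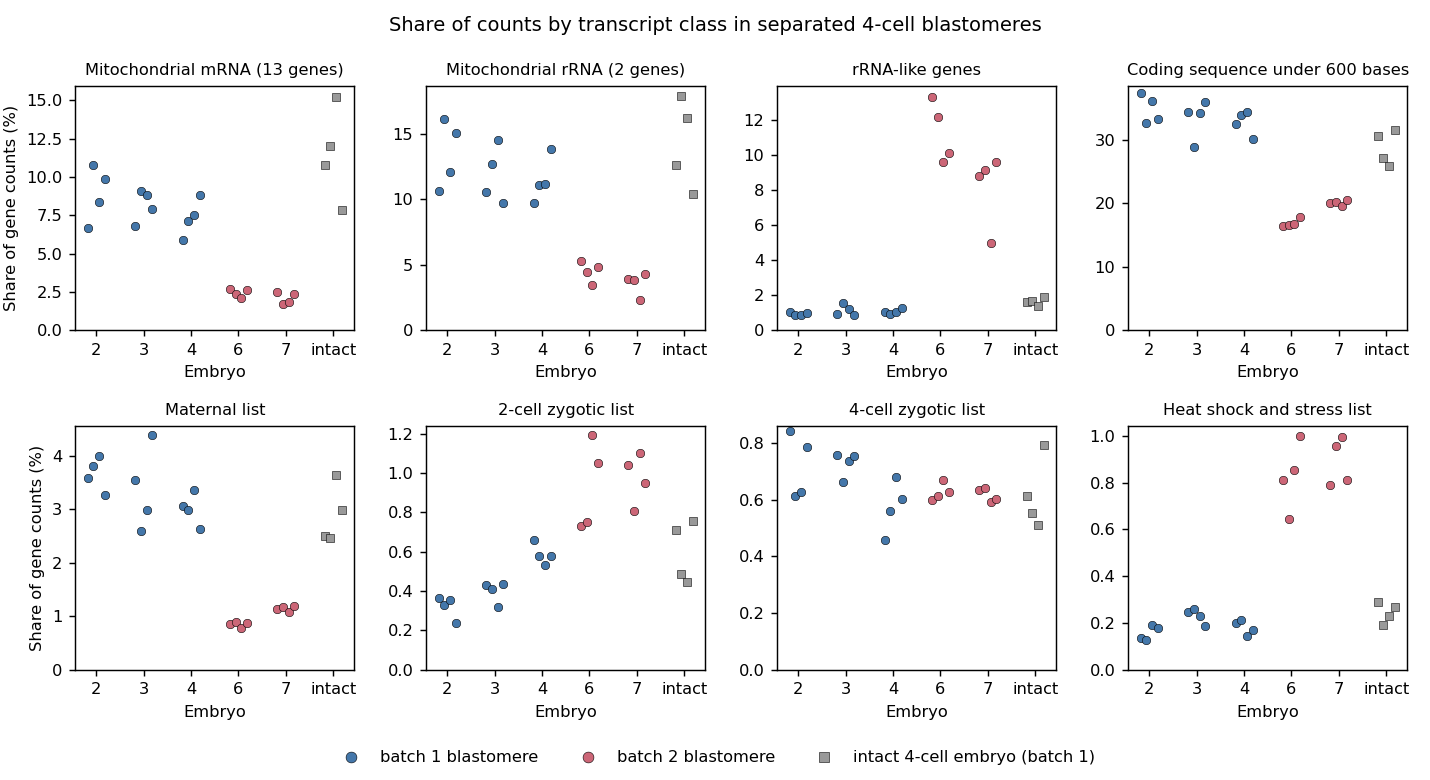
Share of all gene counts (vertical axis, percent) taken by 8 transcript classes, where each circle is 1 blastomere of a separated 4-cell embryo (2, 3 and 4 of batch 1 in blue, 6 and 7 of batch 2 in red) and each square 1 intact 4-cell embryo. Batch 2 blastomeres sit at 1.73% to 2.7% for mitochondrial mRNA and at 4.98% to 13.3% for rRNA-like genes, apart from batch 1, and the batches overlap in the 4-cell zygotic list.

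Nuclear genes that resemble ribosomal RNA took a larger share in batch 2, through CT010467.1. Their summed share was 0.966%, 1.21% and 1.11% in batch 1 and 11.3% and 7.77% in batch 2. The mean was 8.69 times higher in batch 2, at 9.52% ± 2.47 (SD, n = 2) against 1.10% ± 0.125 (SD, n = 3), and intact embryos held 1.42% to 1.89%. Sisters of batch 2 differed from each other, from 4.98% to 13.3%, but none came near the highest batch 1 library, at 1.58%.

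One transcript made up most of this share. CT010467.1 is annotated as ribosomal RNA, on the minus strand of chromosome 17 at bases 39846353 to 39848827 of GRCm38. The first 150 of its 1849 bases are shown because they identify it: they are known to be the reverse complement of the end of 18S ribosomal RNA, and whether the authors' counting used strand is not given in the sources used here.
CT010467.1: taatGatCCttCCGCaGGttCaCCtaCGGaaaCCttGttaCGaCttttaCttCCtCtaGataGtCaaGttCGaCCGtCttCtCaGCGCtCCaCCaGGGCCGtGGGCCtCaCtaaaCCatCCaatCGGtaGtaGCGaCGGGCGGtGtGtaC
Its level was 10348, 11910 and 10672 CPM in batch 1 and 115405 and 81145 CPM in batch 2. The batch 1 embryos differed little, and both batch 2 embryos were far above them and above the intact range of 13203 to 15786 CPM. The log2 fold change was 3.16 ± 0.14, with the smallest adjusted p of all genes (edgeR, 3.58e-11). Lars2, which encodes the mitochondrial leucyl-tRNA synthetase, had 45.8, 71.1 and 56.1 CPM in batch 1 and 2574 and 1928 CPM in batch 2 (log2 fold change 5.29 ± 0.41, edgeR adjusted p = 2.86e-07). These were the only 2 of the 12 tested rRNA-like genes that were called. Of the 12, 6 had a log2 fold change above 0 and 6 below, with a median of 0.15 that was -0.05 with DESeq2's size factors and -0.30 without embryo 6. Gm37376 of the same list did not differ in this way, with 117, 172 and 209 CPM in batch 1 and 140 and 145 CPM in batch 2.

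Small RNAs encoded in the nuclear genome, such as small nucleolar RNAs and vault RNA, took 10.1 times less of the counts in batch 2, at 0.0115% ± 0.0032 (SD, n = 2) against 0.116% ± 0.0493 (SD, n = 3). Of 201 tested, 9 were called lower and none higher, and the median log2 fold change was -3.94, or -3.72 with genes absent from one batch set at their bound. The small nucleolar RNA Snora21 had 11.1, 36.0 and 51.6 CPM in batch 1 and 0.153 and 0.741 CPM in batch 2 (log2 fold change -6.19 ± 1.25, edgeR adjusted p = 0.0127). Snora21 lies within a host gene, so that reads of the host could be counted for it. Long noncoding RNAs took a smaller share, with 1.89% ± 0.173 (SD, n = 3) of the counts in batch 1 and 0.877% ± 0.0804 (SD, n = 2) in batch 2, without overlap. Of 2554 tested, 23 (0.9%) were called lower and 2 higher, a share of lower calls near the 0.801% of all genes, and their median log2 fold change was -0.49, but 0.0 without any 1 of the 5 embryos. Gm26815, a long noncoding RNA, had 438, 477 and 562 CPM in batch 1 and 1.24 and 1.75 CPM in batch 2 (log2 fold change -8.36 ± 0.83, edgeR adjusted p = 1.28e-05). Pseudogenes had 11 calls lower (0.92%) and none higher of 1201 tested, which is also near the share of all genes. Pseudogene counts depend on how reads shared with the parent gene were assigned, and these values are uncertain for that reason.

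Among nuclear coding genes, those of short transcripts were lower in batch 2. Transcript length is that of the longest annotated transcript of a gene in GENCODE M21. Genes under 1000 bases took 15.9%, 14.8% and 14.9% of the counts in batch 1 and 6.06% and 6.93% in batch 2, or 15.2% ± 0.607 (SD, n = 3) against 6.50% ± 0.614 (SD, n = 2). Intact embryos lay between, at 12% to 14.2%, but nearer to batch 1. Of 748 such genes tested, 35 were called lower and none higher, with a median log2 fold change of -0.58. Of 12355 genes of 1000 bases or more, 78 were called higher and 49 lower, and the median was 0.99. Genes of 2000 to under 4000 bases took 24% ± 0.734 (SD, n = 3) of the counts in batch 1 and 32.3% ± 2.00 (SD, n = 2) in batch 2, without overlap of the embryos.

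Called genes also differed in the length of the coding sequence, a measure taken up after the data had been seen. Transcripts under 1000 bases made up 41.7% of the 84 lower, 0 of the 78 higher and 5.7% of all tested. Of the 84 nuclear coding genes called lower, 71 (84.5%) had a coding sequence under 600 bases, against 8 of the 78 called higher (10.3%) and 14% of the 13103 tested. The median coding sequence was 339 bases among those lower, 1191 bases among those higher and 1362 bases over all tested. Genes with under 600 coding bases took 34.9%, 32.8% and 32.6% of the counts in batch 1 and 16.9% and 20% in batch 2, below the intact range of 25.9% to 31.5%. By bins, the median log2 fold change was -1.41 under 300 coding bases, -0.08 from 300 to under 600, 0.97 from 600 to under 1200, 1.15 from 1200 to under 2400, and 1.08 above. Within transcripts of 1000 bases or more it was still -0.88 for 143 genes under 300 coding bases, of which 13 were called lower and none higher.

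The coding sequence of Ost4, a gene lower in batch 2, is printed whole, with the stop codon, to show how short these are. It encodes a 37-residue subunit of the oligosaccharyltransferase, which adds sugar chains to proteins in the endoplasmic reticulum, and lies on the minus strand of chromosome 5 at bases 30905885 to 30907788.
Ost4: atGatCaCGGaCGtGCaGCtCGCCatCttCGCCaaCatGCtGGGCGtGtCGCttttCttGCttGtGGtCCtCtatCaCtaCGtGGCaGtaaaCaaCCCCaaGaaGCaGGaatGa
Ost4 had 1480, 1465 and 1162 CPM in batch 1 and 110 and 142 CPM in batch 2. Both batch 2 embryos were far below batch 1 and the intact range of 913 to 1106 CPM, with a log2 fold change of -3.44 ± 0.35 (edgeR adjusted p = 1.28e-05).

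Genes with a longer transcript but a short coding sequence were also among those lower. Sub1, a transcriptional coactivator with 381 coding bases in a transcript of 3372, had 3703, 3377 and 2684 CPM in batch 1 and 486 and 643 CPM in batch 2 (log2 fold change -2.53 ± 0.30, edgeR adjusted p = 0.000105). Eny2, a subunit of the SAGA and TREX-2 complexes with 303 coding bases, had 1018, 1219 and 662 CPM in batch 1 and 105 and 70.0 CPM in batch 2 (log2 fold change -3.46 ± 0.42, edgeR adjusted p = 0.000112). The batches did not overlap for either gene. The spliceosomal Sm proteins Snrpe and Snrpg fell by 2.58 and 2.51 on the log2 scale.

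Housekeeping genes with longer coding sequences were among those higher. Eef1a1, the translation elongation factor that brings transfer RNA to the ribosome, lies on the minus strand of chromosome 9 at bases 78478449 to 78489151. Psmd3, a subunit of the proteasome's regulatory particle, lies on the plus strand of chromosome 11 at bases 98682554 to 98695979. The first 150 coding bases of each are shown for comparison with Ost4.
Eef1a1: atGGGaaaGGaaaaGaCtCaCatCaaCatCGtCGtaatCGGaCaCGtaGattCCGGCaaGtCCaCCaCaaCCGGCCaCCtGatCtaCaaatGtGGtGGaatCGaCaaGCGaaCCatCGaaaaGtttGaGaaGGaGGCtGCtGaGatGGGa
Psmd3: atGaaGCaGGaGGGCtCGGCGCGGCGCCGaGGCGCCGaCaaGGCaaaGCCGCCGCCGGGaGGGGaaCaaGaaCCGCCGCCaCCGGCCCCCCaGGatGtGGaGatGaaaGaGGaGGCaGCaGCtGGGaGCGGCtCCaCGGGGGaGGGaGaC
Their coding sequences run to 1389 and 1593 bases with the stop codon. Eef1a1 had 144, 144 and 194 CPM in batch 1 and 1834 and 1725 CPM in batch 2, above the intact range of 140 to 265 CPM (log2 fold change 3.47 ± 0.46, edgeR adjusted p = 0.000282). Psmd3 had 4.48, 24.5 and 10.2 CPM in batch 1 and 229 and 209 CPM in batch 2 (log2 fold change 4.07 ± 0.98, edgeR adjusted p = 0.0427). The call of Psmd3 was lost with DESeq2's size factors, with another filter, in thinned libraries and without any 1 embryo other than embryo 3. Eif4a1, an RNA helicase of translation initiation, had 104, 148 and 108 CPM in batch 1 and 1429 and 1401 CPM in batch 2 (log2 fold change 3.56 ± 0.54, edgeR adjusted p = 0.00102). All 3 genes were higher in both batch 2 embryos than in any other 4-cell embryo.

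The fold change also varied with base composition, a measure taken up after the data had been seen. The median log2 fold change of coding genes was -0.15 under 40% GC, 0.28 from 40% to 45%, 0.81 from 45% to 50%, 1.40 from 50% to 55%, and 1.80 above. The value from 40% to 45% was 0.08 with DESeq2's size factors. Among called genes the median GC was 49.9% for those higher and 47.7% for those lower, beside 49.2% over all tested. Within GC bins, genes of transcripts under 1000 bases stayed lower than longer ones, with medians of -0.02 and 1.95 at 55% GC or more. Weighted by counts, the GC content was 46.8%, 46.7% and 46.6% in batch 1 and 47.9% and 47.7% in batch 2, against 46.4% to 46.8% in intact embryos. Base composition and coding length are properties of the same genes, and their parts in the difference were not tested.

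**Figure D2:**
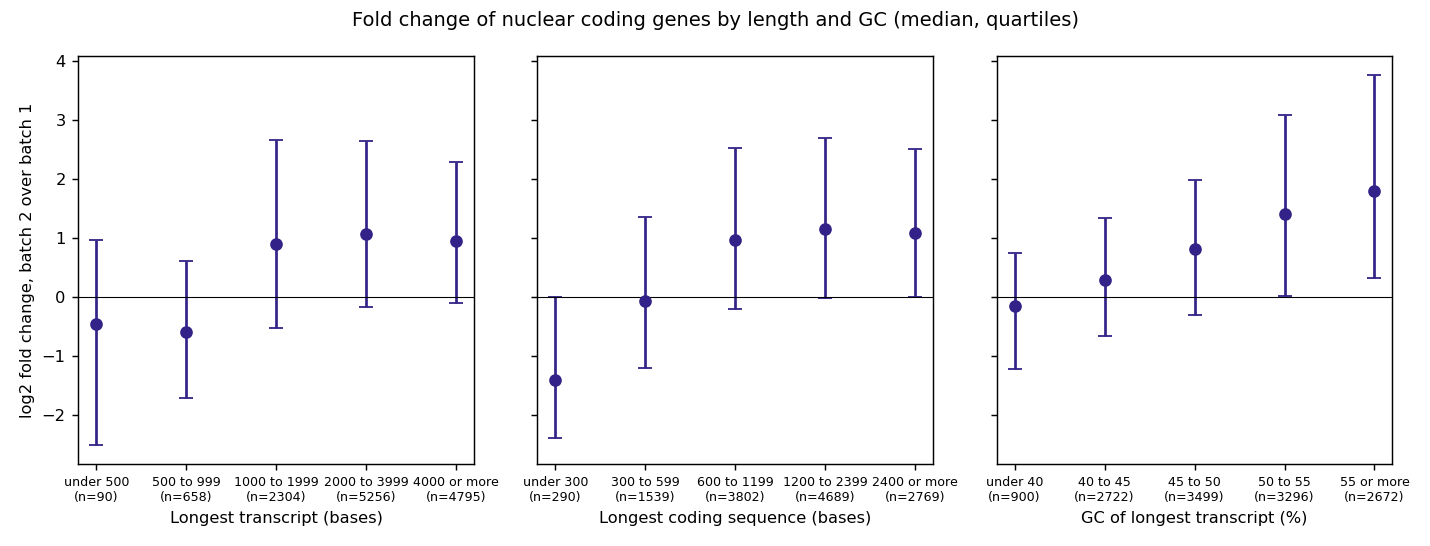
Log2 fold change of batch 2 over batch 1 (vertical axis) for tested nuclear coding genes in bins of transcript length, coding sequence length (bases) and GC content (percent). Points are medians and bars span the quartiles; the median is -1.41 under 300 coding bases and 1.80 at 55% GC or more.

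The cytosolic ribosomal proteins split by coding length. Together they took 8.22% ± 0.594 (SD, n = 3) of the counts in batch 1 and 6.24% ± 0.102 (SD, n = 2) in batch 2, which lies inside the intact range of 5.91% to 9.24%. All 82 were tested, 9 were called lower and 3 higher, with a median log2 fold change of -0.13. The 9 lower were all among the 58 with under 600 coding bases, whose median was -0.61, and the 3 higher all among the 24 longer ones, whose median was 1.32. Rpl41, the smallest protein of the large subunit, had 9166, 7830 and 12782 CPM in batch 1 and 3093 and 2779 CPM in batch 2 (log2 fold change -1.76 ± 0.26, edgeR adjusted p = 0.000771). Rps28 fell by 2.83 on the log2 scale. Rpl4, Rpl6 and Rplp0 rose by 2.05, 1.92 and 2.03, but all 3 calls were lost in thinned libraries, with the filter of at least 10 CPM and without embryo 6 or embryo 7, and that of Rpl4 also with DESeq2's size factors. Ribosomal protein genes have many processed pseudogenes, so their counts depend on how shared reads were assigned.

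Nuclear genes of the respiratory chain and ATP synthase showed a similar split. Their share was 2.43%, 2.05% and 1.93% in batch 1 and 0.899% and 1.02% in batch 2, below the intact range of 1.38% to 1.93%. Of 78 tested, 11 were called lower and 1 higher. Among the 57 with under 600 coding bases 11 were lower and none higher, with a median log2 fold change of -1.71, and among the 20 longer ones 1 was higher and none lower, with a median of 1.27. Cox7a2, a small subunit of complex IV, had 1377, 1104 and 963 CPM in batch 1 and 197 and 208 CPM in batch 2 (log2 fold change -2.50 ± 0.30, edgeR adjusted p = 0.000105). Atp5b, the catalytic beta subunit of ATP synthase, had 127, 163 and 118 CPM in batch 1 and 905 and 1086 CPM in batch 2 (log2 fold change 2.87 ± 0.41, edgeR adjusted p = 0.000696). The 2 genes, which work in one pathway, thus differed in opposite directions, both without overlap of the embryos.

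**Figure D3:**
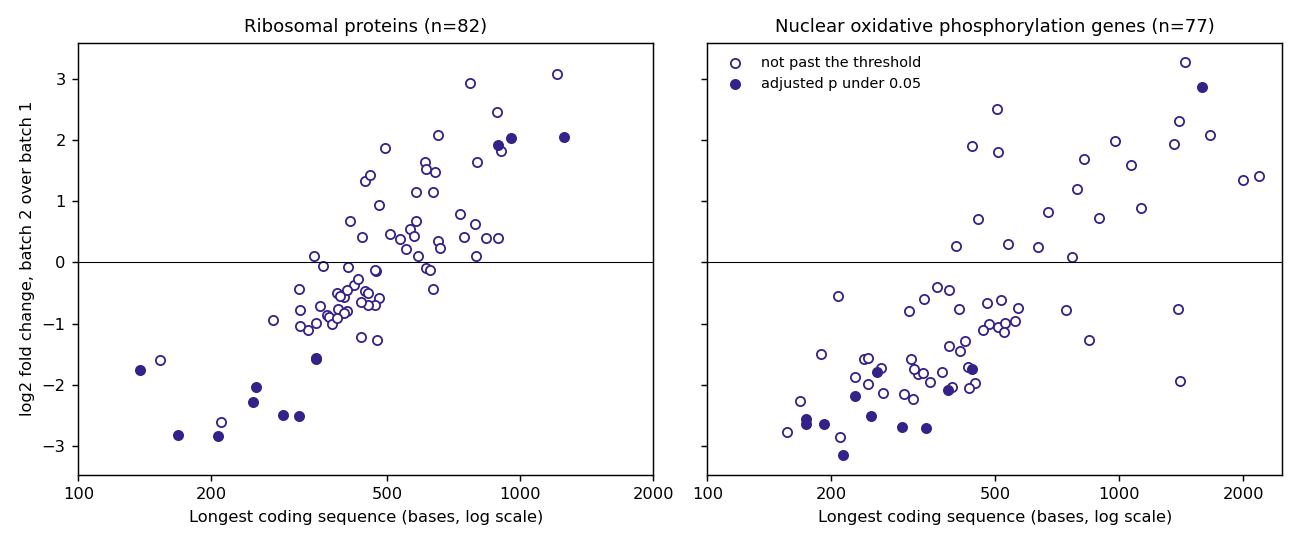
Log2 fold change of batch 2 over batch 1 (vertical axis) against coding sequence length in bases (horizontal log axis) for 82 cytosolic ribosomal protein genes and 77 nuclear respiratory chain genes. Filled points have an edgeR adjusted p under 0.05; the filled points under 600 coding bases all lie below 0 and the longer ones above.

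Stored maternal transcripts took a smaller share in batch 2, mainly through 1 gene. The maternal list took 3.62%, 3.26% and 3.01% of the counts in batch 1 and 0.855% and 1.14% in batch 2. Dppa3, also called Stella, which protects the maternal genome from demethylation, had 31383, 28384 and 26045 CPM in batch 1 and 6189 and 9115 CPM in batch 2. Both batch 2 embryos were below batch 1 and below the intact range of 17037 to 29857 CPM (log2 fold change -1.90 ± 0.29, edgeR adjusted p = 0.00106). Without Dppa3 the list took 0.748%, 0.429% and 0.383% in batch 1 and 0.265% and 0.290% in batch 2, which is a narrower gap with embryo 2 standing highest. Of 77 tested, 3 were called lower and 1 higher, and the median log2 fold change was 0.02, beside 0.92 for all nuclear coding genes. With DESeq2's size factors the median of the list was -0.17. Dppa3 has 450 coding bases, and the 16 members under 600 had a median of -1.07 against 0.28 for the 61 longer ones. Over all nuclear coding genes these medians were -0.28 and 1.07, so that the list lay below other genes of like coding length. Nlrp9c, of the oocyte NLRP family, had 404, 242 and 95.8 CPM in batch 1 and 44.6 and 25.6 CPM in batch 2 (log2 fold change -2.81 ± 0.56, edgeR adjusted p = 0.0109).

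Genes of the first wave of zygotic transcription, at the 2-cell stage, took a larger share in batch 2. The share was 0.317%, 0.400% and 0.589% in batch 1 and 0.935% and 1.03% in batch 2, or 2.26 times higher in the mean, and intact 4-cell embryos held 0.445% to 0.757%. Of 49 tested, 3 were called higher and 1 lower, with a median log2 fold change of 1.06, beside 0.92 for all nuclear coding genes. That median was 0.76 with genes absent from one batch set at their bound, and 0.13 without embryo 6. Klf17, a Krüppel-like transcription factor, had 36.3, 96.2 and 101 CPM in batch 1 and 450 and 855 CPM in batch 2 (log2 fold change 3.07 ± 0.57, edgeR adjusted p = 0.00628). Snai1, a zinc-finger repressor, had 3.1, 2.0 and 0.228 CPM in batch 1 and 83.9 and 178 CPM in batch 2 (log2 fold change 6.20 ± 1.34, edgeR adjusted p = 0.0197). The calls of Klf17 and Snai1 were lost without embryo 6 or embryo 7, and that of Snai1 also without any 1 batch 1 embryo. Trim43b rose by 1.52 ± 0.37 (edgeR adjusted p = 0.0444), and Rfpl4b fell by 3.58 on the log2 scale. The call of Trim43b was lost with DESeq2's size factors, with the filter of at least 10 CPM and in thinned libraries. Both calls were lost in a fit of the 4-cell embryos alone, and neither was kept without each of the 5 embryos in turn.

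The list of genes active at the 4-cell stage took an overlapping share in the batches as a whole, but not without its most abundant member. The share was 0.732%, 0.721% and 0.577% in batch 1 and 0.629% and 0.611% in batch 2 (exact two-sided permutation p = 0.6). Without Dppa5a, a choice made after the data had been seen, it was 0.237%, 0.264% and 0.295% in batch 1 and 0.470% and 0.537% in batch 2, above the intact range of 0.216% to 0.335% (exact two-sided permutation p = 0.2). None of the 40 tested members was called by edgeR. In batch 2, 24 of the 40 were higher without overlap and 1 lower, beside 34.5% and 10.9% of all genes tested. Among the 13103 nuclear coding genes tested, 5311 were higher without overlap and 1053 lower. Of the 25 members of at least 50% GC, 16 were higher and 0 lower, beside 3036 and 309 of 5968 coding genes of such GC. The median log2 fold change was 1.27, beside 0.92 for all nuclear coding genes. The 25 members of at least 50% GC had a median of 1.866, beside 1.565 for all nuclear coding genes of such GC. The pluripotency regulator Nr5a2 had 147, 158 and 268 CPM in batch 1 and 644 and 633 CPM in batch 2 without overlap (log2 fold change 1.74 ± 0.47, edgeR adjusted p = 0.0804). Dppa5a, which is abundant in early embryos, had 5404, 4581 and 2791 CPM in batch 1 and 1661 and 790 CPM in batch 2 (log2 fold change -1.80 ± 0.82, edgeR adjusted p = 0.356).

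Stage classes were drawn from the intact embryos. Between intact 2-cell and intact 4-cell embryos, 538 genes rose (3.1% of those tested) and 652 fell (3.76%). The falling genes took 7.26%, 6.38% and 5.79% of the counts in batch 1 and 3.53% and 3.91% in batch 2, below the intact range of 5.59% to 6.58%, and no library of batch 2 overlapped with batch 1. The rising genes took 17.9% ± 2.08 (SD, n = 3) of the counts in batch 1 and 26.7% ± 2.44 (SD, n = 2) in batch 2. CT010467.1 is one of them, and without it the shares were 16.9% ± 2.03 (SD, n = 3) and 17.5% ± 0.0104 (SD, n = 2) and the embryos overlapped (exact permutation p = 0.8). Of the rising genes 29 were called higher (5.39%) and 24 lower (4.46%) in batch 2, and of the falling genes 6 higher (0.92%) and 27 lower (4.14%). Over all genes tested these shares were 0.467% and 0.801%. Both contrasts come from the same fit and share each gene's estimated spread. A gene called in one is therefore likelier to be called in the other, so these shares do not measure a tie between stage and batch. Rising genes with under 600 coding bases had 1 call higher and 13 lower, and longer ones 27 higher and 1 lower. Falling genes with under 600 coding bases had 0 calls higher and 17 lower, and longer ones 5 higher and 3 lower.

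The list of stress genes, which mixes chaperones with early response and damage response genes, took a larger share in batch 2, and 3 abundant chaperones rose. The list took 0.158%, 0.237% and 0.179% of the counts in batch 1 and 0.826% and 0.867% in batch 2, which is 4.42 times higher in the mean and above the intact range of 0.191% to 0.288%. Of 34 tested, 3 were called higher (8.82%, beside 0.467% of all genes tested) and none lower. The median log2 fold change was 1.64, beside 0.92 for all nuclear coding genes. With genes absent from one batch set at their bound these medians were 1.29 and 0.83. The 23 tested members of at least 50% GC had a median of 1.737, beside 1.565 for all nuclear coding genes of such GC. Hspa8, the constitutive Hsp70 chaperone, had 141, 219 and 446 CPM in batch 1 and 1924 and 3294 CPM in batch 2 (log2 fold change 3.28 ± 0.57, edgeR adjusted p = 0.00409). Both forms of the Hsp90 chaperone rose, Hsp90aa1 by 1.40 ± 0.28 and Hsp90ab1 by 3.08 ± 0.67 (edgeR adjusted p = 0.0127 and 0.0201). The call of Hspa8 was lost without embryo 7, and that of each Hsp90 gene without embryo 6 or embryo 7. Other chaperones of the list were not called, among them Hspa1a, Hspa1b and Hsph1, at -1.89, -1.42 and -0.22, and Hspa5 and Dnajb1, at 0.75 and 1.61. All 3 called genes have long coding sequences, and the 6 tested members of the list with under 600 coding bases had a median of -0.10.

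**Figure D4:**
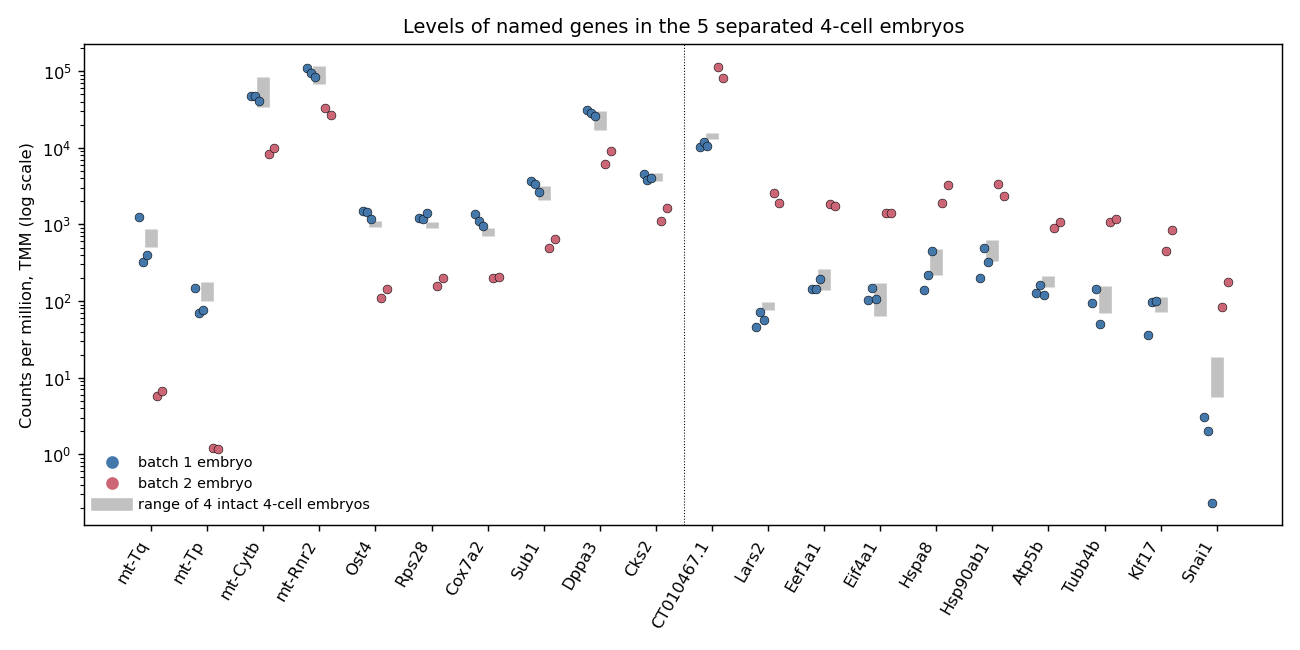
Level in CPM (log axis) of 20 named genes in each separated 4-cell embryo, with batch 1 embryos in blue, batch 2 embryos in red and the range of the 4 intact embryos as a bar. Ost4 sits at 110 and 142 CPM in batch 2 and above 1000 CPM in batch 1, and Eef1a1 lies the other way round.

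Growth and cell cycle lists held calls in both directions or none. Ribosome biogenesis genes took 2.12% ± 0.231 (SD, n = 3) of the counts in batch 1 and 2.83% ± 0.222 (SD, n = 2) in batch 2. The embryos did not overlap, and batch 2 lay above the intact range of 1.90% to 2.45%. Of 89 tested, 2 were called higher and 2 lower. Without overlap 60 of the 89 were higher and 7 lower, beside 34.5% and 10.9% of all genes. Among the 13103 nuclear coding genes tested, 5311 were higher without overlap and 1053 lower. Nolc1, a nucleolar phosphoprotein, rose by 1.75 ± 0.40, and Brix1, a factor of large-subunit assembly, fell by 1.55 on the log2 scale (edgeR adjusted p = 0.0283 and 0.0145). The G2 and M phase list overlapped, at 1.30% in batch 1 and 1.32% in batch 2 in the mean, and held calls in both directions, with Ube2c and Aurka higher and Cks2 lower. The calls of Nolc1 and Aurka were lost with DESeq2's size factors, in thinned libraries and without embryo 6 or embryo 7. Those of Ube2c and Brix1 were lost without embryo 6 or embryo 7, and that of Cks2 without embryo 6. No S phase gene and no histone gene was called by edgeR, of 62 and 46 tested. The S phase list took 0.660%, 0.729% and 0.733% of the counts in batch 1 and 0.770% and 0.961% in batch 2. Of its genes, 35 were higher without overlap and 5 lower. Most histone genes have under 600 coding bases, yet the median of the list did not go the way of other short genes. Their median log2 fold change was 1.07, with 36 above 0 and 9 below, beside -0.28 for all coding genes under 600 bases. Their summed share overlapped between the batches.

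Markers of other cells were low. Cumulus cell markers summed to 24.3 to 30.2 CPM in batch 1 and to 61.5 and 87.5 CPM in batch 2, of which Amhr2 made up 60.6 and 75.2 CPM. Of the 19 cumulus markers, 14 had no count in batch 1 and 9 had none in batch 2, whose embryos were deeper. Those 9, Cyp11a1, Has2 and Ptgs2 among them, were at 0 in all 5 embryos. Blood, oviduct and fibroblast markers overlapped between the batches in their sums. Of the 15 blood markers, 13 had no count in batch 1 and 6 had none in batch 2. Cd68 of that list was at 0 in batch 1 and at 8.47 and 14.6 CPM in batch 2. Sperm markers summed to 29.3, 11.3 and 13.7 CPM in batch 1 and 3.63 and 7.53 CPM in batch 2. Batch 1 embryo 4 held counts of the Y-linked genes Eif2s3y and Ddx3y and none of Xist, and the other 4 embryos held Xist, so the sexes are not balanced over the batches. The part of these differences in the results was not tested.

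The calls rest on 2 batch 2 embryos. Without embryo 6 or embryo 7 the number of called genes was 42 and 43, and without a batch 1 embryo it was 137 to 179. Of the 220 genes, 31 were called without each of the 5 embryos in turn, of which 26 were lower in batch 2, Ost4, mt-Tq and mt-Cytb among them. The 5 that were higher were Atp5b, Lars2, Eef1a1, Eif4a1 and CT010467.1.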

How the data were processed

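Per the submitters' processing notes, Trim Galore 0.6.10 served for trimming, STAR 2.7.3a for alignment and RSEM 1.2.28 for quantification, on the GRCm38 build. The values the authors deposited are RSEM's expected counts, and 12.6% of those above 0 have decimals. The annotation and the use of strand are not given in the sources used here. Expected counts were rounded and summed over the sisters of an embryo, and all 19 embryos in 5 groups entered 1 edgeR 4.0.16 quasi-likelihood fit with TMM scaling and edgeR's filter on low counts (17343 of 55487 genes), with Benjamini-Hochberg adjustment at 0.05. CPM are scaled by TMM, shares are not. Standard errors were derived from the log2 fold change and the F statistic. Shares and genes detected were compared over embryos by exact two-sided permutation over 30 classes, for which the smallest adjusted p was 0.231. Gene models came from GENCODE M21, matched by symbol for 53243 genes, by ID for 227 and by an older symbol for 405. Sequences were read from that release on GRCm38.

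Named genes were the 10 highest and 10 lowest called fold changes with a mean of at least 10 CPM and without a predicted name, the 3 smallest p and 3 highest levels of each list, the 3 smallest p of each class, and all mitochondrial mRNA, mitochondrial rRNA and rRNA-like genes of at least 10 CPM. Rpl4, Rpl6, Rplp0, Ddx3y, Cd68, chaperones without a call and the cumulus markers at 0 were named after their values were seen. The members and lists were chosen with earlier results of these data known, and after the files had been read the rRNA-like list was changed to include every gene annotated as rRNA and 2 respiratory chain genes were respelled. The fit was tested on simulated data. Python 3.11.15 and R 4.3.3 were used. One sequence is not reported here.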

Additional observations from a re-analysis of the deposited data

Results flagged for a closer look

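Blastomere 2 of batch 1 embryo 4 had a total of 2.4 M (mega) counts, while its 3 sisters had 3.48 to 3.59 M. The gap to the nearest sister was 0.915 of the range of the 4, above the critical value of Dixon's test at 95%. Chance flags about 1 in 20 groups, and 59 groups were looked at.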

How the results depend on the processing

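Beside 220 genes called (81 higher, 139 lower), a filter of at least 10 CPM in 2 embryos gave 369 (54 higher, 315 lower) and no filter gave 69 higher and 256 lower. The separated 4-cell embryos alone gave 478 (157 higher, 321 lower) and the 4-cell embryos alone 691 (227 higher, 464 lower). DESeq2 gave 1386 (550 higher, 836 lower) and limma voom with quality weights 3655 (2677 higher, 978 lower). Each blastomere as a library, which treats sisters as replicates, gave 7120 (4623 higher, 2497 lower), and 1 of the 220 genes then changed direction. Thinned libraries gave 48 higher and 201 lower, and DESeq2's size factors 58 higher. The share of calls that were higher thus ran from 14.6% with the stricter filter to 73.2% by voom, beside 36.8%. Leaving out each embryo in turn gave 42 to 179 calls, of which 7 to 50 were higher and 29 to 129 lower. Without blastomere 2 of embryo 7 the number was 220.

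With mitochondrial and rRNA-like genes left out of the total, the batch difference in share was -11.7 percentage points in place of -8.70 for short transcripts, -1.59 in place of -1.18 for respiratory chain genes, -3.06 in place of -1.98 for ribosomal proteins and -3.04 in place of -2.30 for the maternal list. The gap in genes detected was 3842.4, and it was 3263.2 at a minimum of 5 counts and 5825.1 without thinning. The median log2 fold change of coding genes under 1000 bases less that of longer ones was -1.58, and -1.66 to -1.05 without each embryo in turn. By coding length, under 600 bases less the rest, it was -1.34, and -1.44 to -0.87. From the lowest to the highest GC bin it was 1.95, and 1.60 to 2.20. The cause of these shifts was not tested. No called named gene and no share difference changed direction under the alternatives run, but the median log2 fold change of the maternal list went from 0.02 to -0.28 in thinned libraries and to -0.23 without embryo 6 or embryo 7, and that of rRNA-like genes from 0.15 to -0.34 without embryo 7. The shares stayed within 1 SD without each embryo in turn. Batches of 2 and 3 embryos cannot do otherwise, so this is no measure of how stable the shares are.

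No paired analysis was possible because batch 1 and batch 2 embryos share no replicate numbers. With 2 embryos in batch 2, a gene without a call is not shown to be alike in the batches.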

Other observations

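The gene families below were chosen after the values had been seen. Over all genes tested, 0.467% were called higher and 0.801% lower, and coding genes of 600 or more coding bases had a median log2 fold change of 1.07. Of 13 tested subunits of RNA polymerase II, 4 were lower and none higher in batch 2 by edgeR. All 4 are among the 8 with under 600 coding bases. The small subunits Polr2k and Polr2l fell by 2.50 and 2.19 on the log2 scale, while the large catalytic subunits Polr2a and Polr2b were not called, at 0.68 and 0.29. Of 20 tested genes of heterogeneous nuclear ribonucleoproteins, 4 were higher and none lower, with a median log2 fold change of 1.39. All 20 have 600 or more coding bases. None of the 4 calls was kept without each of the 5 embryos in turn, and those of Hnrnpa2b1 and Hnrnpf were lost with DESeq2's size factors.

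Of 13 tested genes of polyamine and S-adenosylmethionine metabolism, 5 were higher and none lower, with a median of 1.66. None of the 5 calls was kept without each of the 5 embryos in turn. Of these 13, 11 have 600 or more coding bases, with a median of 1.66 beside 1.07 for all coding genes of such length. Odc1, the first enzyme of polyamine synthesis, had 182, 328 and 219 CPM in batch 1 and 1330 and 1115 CPM in batch 2 (log2 fold change 2.33 ± 0.33, edgeR adjusted p = 0.000619). Its inhibitor Oaz1 rose by 2.53, and Amd1 and Mat2a rose by 3.17 each. Sat1, which breaks polyamines down, was at 0.08 and was not called.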
